A study of Mus musculus with 8 samples.

Results

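The ductus arteriosus, the fetal vessel between the pulmonary artery and the descending aorta that closes after birth, was compared with the aorta for 34 genes of the elastic fibre and its microfibrils. The genes were taken by name, and each was represented by the probe set, among those annotated to that symbol alone, with the highest mean over all 8 arrays. Of the 34 genes, 30 had such a probe set, out of 18193 genes in all. The probe sets of Loxl2 (2) and Mfap1a (3) were shared with another symbol and were left out, and Fbn1 and Efemp2 were not analysed here. Elastin, the fibrillins, the fibulins, the lysyl oxidases and the latent TGF-beta binding proteins (LTBPs) were treated as the core of the set, with 15 of 18 genes measured. The remaining 15 of 16 genes were microfibril-associated proteins, emilins, ADAMTS-like proteins and adhesive glycoproteins.

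Tissue came from untreated mice of the strain labelled CD88, described in the labels as wild type, at day 19 of gestation. The ductus group held 4 arrays and the aorta group held 4 arrays, and both carried the same strain, age and lack of treatment. Each array measured total RNA from 1 pool, which joined the vessel segments of up to 10 littermates from 1 pregnant female, so a value is an average over the littermates and over every cell type in the segment. The labels number the replicates as biological but do not say whether a ductus pool and an aorta pool of the same number came from 1 litter. The deposited values were log2 expression after robust multi-array averaging (RMA), and 1 unit is a 2-fold step. Array medians were 4.36 to 4.42 and first quartiles were 2.74 to 2.86, and no detection calls were given, so folds of dim genes may be too small. Folds of very bright genes may be too small as well, since for several of them a dimmer probe set differed more, as given below.

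All 8 smooth muscle markers were measured, and their mean was 10.05 to 10.50 on the ductus arrays and 9.31 to 9.95 on the aorta arrays. The mean of the 10 mesothelial markers was 6.49 to 7.10 on the ductus arrays and 7.70 to 9.09 on the aorta arrays. The mean of 9 endothelial markers was 7.29 to 7.61 in the ductus and 7.75 to 8.19 in the aorta, and that of 8 fibroblast markers was 9.61 to 9.70 in the ductus and 9.79 to 10.01 in the aorta. The part of these cell types in the differences below was not tested, and in bulk tissue fewer cells of a type and less RNA per cell cannot be told apart. Skeletal muscle markers averaged 6.10 on ductus replicate 3, against 3.80 to 4.02 on the other ductus arrays and 3.36 to 3.88 on the aorta arrays. Lung epithelium markers averaged 3.90 to 5.40 on the ductus arrays, highest on replicate 3, and 3.22 to 4.36 on the aorta arrays. The 7 thymus markers averaged 3.97 to 7.63 in the ductus and 3.51 to 6.92 in the aorta, and the 4 adipocyte markers 5.79 to 6.997 in the ductus and 4.87 to 8.58 in the aorta, highest on aorta replicate 3. Ductus replicate 3 also held the highest ductus value of 18 of the 30 genes, and the share over all genes was not counted.

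Elastic fibres give arteries their recoil. Smooth muscle cells secrete tropoelastin, the product of Eln, which is laid down on microfibrils built from fibrillins and is then cross-linked by lysyl oxidases. Fibulins bring tropoelastin, the cross-linking enzymes and the microfibrils together, and LTBPs hold latent TGF-beta in the matrix. In the ductus of some species, fragmented or poorly assembled elastic fibres and a thickened intima are known features before closure, whereas the aorta builds continuous elastic lamellae. The structure of the mouse vessels was not examined here.

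Of the 30 genes, 7 were higher and 3 were lower in the ductus at an adjusted p under 0.05 (limma's moderated test over all genes, Benjamini-Hochberg adjustment). The share over all 18193 genes was 3.86%, with 1.80% higher and 2.06% lower in the ductus. Among the 8468 genes with a mean above log2 6, 5.23% were called, and 9 of the 25 elastic fibre genes above that level were. The higher genes were Adamtsl3, Loxl4, Adamtsl2, Fbn2, Ltbp2, Fn1 and Ltbp1, and the lower ones were Fbln1, Npnt and Ltbp4. In the core, 4 of 15 were higher and 2 lower. The tissues did not overlap for 14 of the 30 genes, 10 with higher ductus values and 4 with lower ones, against 11.3% of all genes. The median log2 difference was 0.04 over the 30 genes and -0.03 over all genes, and the median size of the difference, without its sign, was 0.39 and 0.15.

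**Figure D1:**
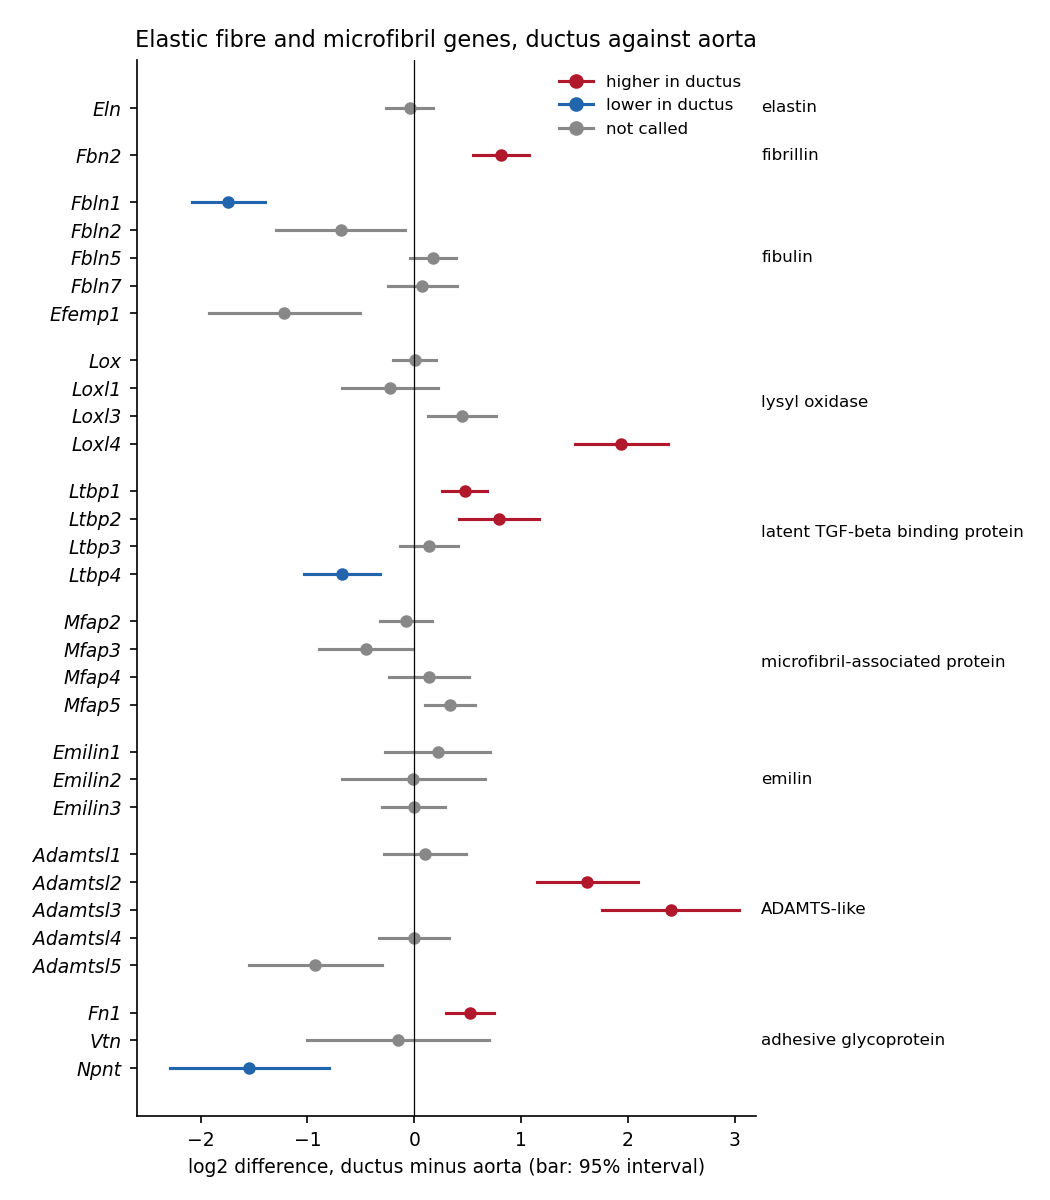
Log2 difference, ductus minus aorta, for the 30 measured genes, grouped by family. Points are estimates and bars 95% intervals of limma's fit (4 arrays per tissue); Adamtsl3 at 2.40 and Fbln1 at -1.74 are at the ends of the scale, while Eln and Lox lie at the zero line.

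For 5 of the 10 genes, Fbn2, Fbln1, Loxl4, Adamtsl2 and Adamtsl3, the call was kept on leaving out each array in turn. The calls of Ltbp1, Ltbp2, Ltbp4, Fn1 and Npnt were lost without 1 or more arrays. The plot of adjusted p-values shows both sets of genes.

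**Figure D2:**
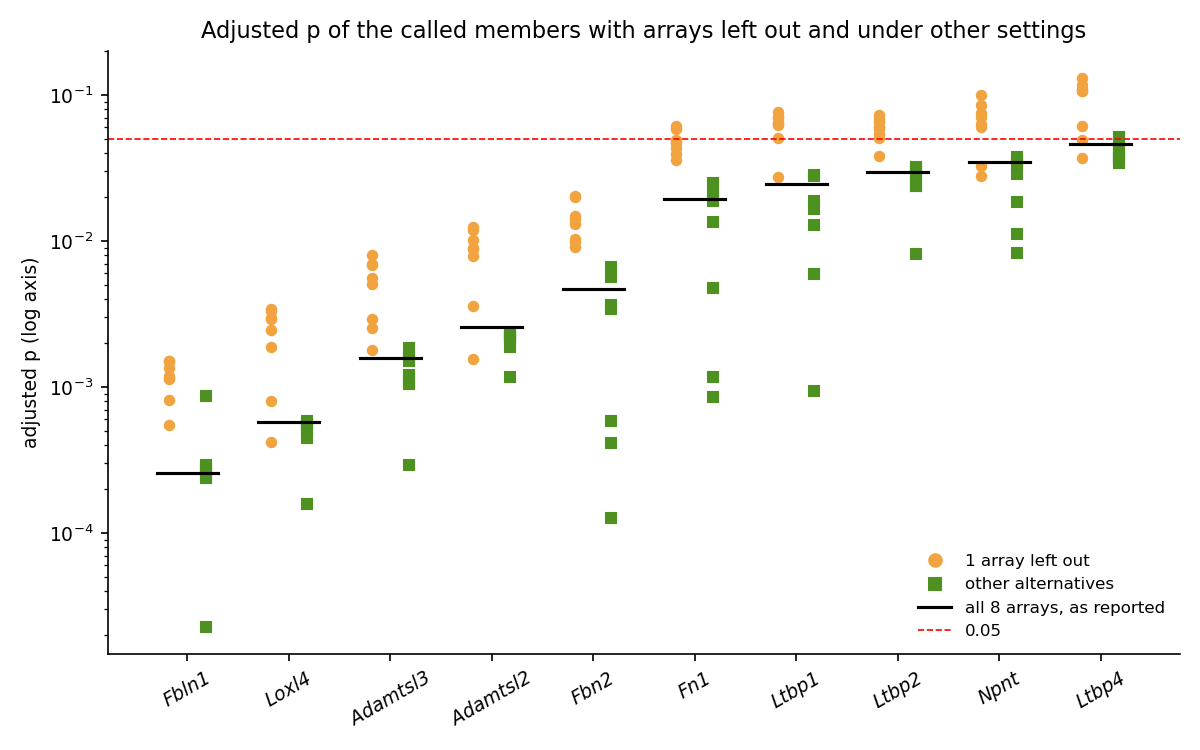
Adjusted p (log axis) of the 10 called genes with all 8 arrays (black line), with 1 array left out (circles) and under the other alternative settings without a block (squares); the dashed line is 0.05. All circles of Fbln1, Loxl4, Adamtsl3, Adamtsl2 and Fbn2 lie under the line, up to 0.0203 for Fbn2, and those of Ltbp4 reach 0.130.

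The sequence upstream of a listed start site is shown for the 5 called genes that differed at least 2-fold (2.13% of all genes did so), 3 of them higher and 2 lower in the ductus, since their messages moved most. Each line holds the 250 bases before the first start listed for the gene (RefSeq, GRCm38.p6), read 5′ to 3′ on the gene's own strand. That start is the outer end of the annotated gene for Loxl4, Fbln1 and Npnt, but lies 295 bases inside it for Adamtsl3, whose whole window is within the gene, and 43 bases inside it for Adamtsl2. Capitals mark matches to the AP-2 motif GCCNNNGGC or to the TATA box TATAAA, searched on both strands together with the CArG box, the serum response factor motif of smooth muscle genes.
Adamtsl3 (chr7:82335444-82335693, + strand): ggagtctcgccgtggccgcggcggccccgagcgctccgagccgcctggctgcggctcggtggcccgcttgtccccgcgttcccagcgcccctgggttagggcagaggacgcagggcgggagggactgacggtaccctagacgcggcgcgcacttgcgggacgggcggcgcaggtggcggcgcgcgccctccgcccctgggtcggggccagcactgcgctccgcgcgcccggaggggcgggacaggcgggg
Loxl4 (chr19:42612807-42613056, - strand): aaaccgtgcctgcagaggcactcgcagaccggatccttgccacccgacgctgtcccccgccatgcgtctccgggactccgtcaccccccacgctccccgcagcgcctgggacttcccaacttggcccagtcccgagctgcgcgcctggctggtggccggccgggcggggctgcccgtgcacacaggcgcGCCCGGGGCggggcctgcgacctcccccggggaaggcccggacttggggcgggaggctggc
Adamtsl2 (chr2:27079129-27079378, + strand): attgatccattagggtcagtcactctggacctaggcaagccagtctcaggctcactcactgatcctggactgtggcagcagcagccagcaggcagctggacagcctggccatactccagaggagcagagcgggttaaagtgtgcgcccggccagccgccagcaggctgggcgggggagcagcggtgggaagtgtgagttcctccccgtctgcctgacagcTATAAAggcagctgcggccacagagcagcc
Fbln1 (chr15:85205699-85205948, + strand): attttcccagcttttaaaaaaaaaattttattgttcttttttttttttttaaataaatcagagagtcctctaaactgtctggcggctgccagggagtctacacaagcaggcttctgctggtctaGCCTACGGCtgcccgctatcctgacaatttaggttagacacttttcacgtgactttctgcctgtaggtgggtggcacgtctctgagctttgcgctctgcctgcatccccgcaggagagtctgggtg
Npnt (chr3:132950292-132950541, - strand): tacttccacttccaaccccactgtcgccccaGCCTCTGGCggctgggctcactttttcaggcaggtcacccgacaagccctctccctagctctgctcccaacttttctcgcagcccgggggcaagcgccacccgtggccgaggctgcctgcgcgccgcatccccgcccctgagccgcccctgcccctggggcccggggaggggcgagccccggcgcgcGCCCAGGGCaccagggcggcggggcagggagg
The AP-2 motif had 1 match in Loxl4, 1 in Fbln1 and 2 in Npnt, and no match in Adamtsl3 or Adamtsl2. The TATA box had 1 match, in Adamtsl2, on the gene side of its outermost annotated start, and the CArG box had 0 in these windows. Of the 32851 windows of the same length in the table, 13.7% held the AP-2 motif, 12.4% the TATA box and 1.47% the CArG box. Of 20 elastic fibre genes searched, each by its first listed start only, 6 held the AP-2 motif, among them 4 of the 8 called ones. The other measured genes were not searched, and the called genes Fbn2 and Fn1 were among those left out. The shares over all windows count every listed start, and some genes have several, so the units differ. The AP-2 motif is rich in G and C, and the GC content of the 5 windows was 80% in Adamtsl3, 76% in Loxl4, 62.8% in Adamtsl2, 46.4% in Fbln1 and 74% in Npnt. A match is a string of letters and says nothing of binding.

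The scaffold of the fibre was measured through Eln and Fbn2. Elastin did not pass the test: Eln read 12.27, 12.22, 12.30 and 12.23 on ductus arrays 1 to 4, against 12.16, 12.29, 12.32 and 12.42 on aorta arrays 1 to 4. The tissues overlapped, and the 95% interval of the log2 difference was -0.26 to 0.17 (adjusted p = 0.884). A second Eln probe set differed by log2 -0.22 ± 0.118 (SE) and did not pass either. Fbn2 encodes fibrillin 2, the fibrillin best known from developing tissue. It read 10.84, 10.70, 10.71 and 10.79 in the ductus, against 10.05, 9.68, 9.98 and 10.09 in the aorta. Every ductus value lay above every aorta value, and Fbn2 was 1.75-fold higher in the ductus (log2 difference 0.81 ± 0.117, SE; adjusted p = 0.00466). Its other probe set went the same way with a larger difference, log2 1.41 ± 0.142.

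Of the 5 fibulins, 1 was lower in the ductus and the other 4 did not pass. Fbln1, which encodes a fibulin of basement membranes and elastic fibre cores, read 7.57, 7.23, 7.59 and 7.66 in the ductus, against 9.43, 9.47, 8.96 and 9.14 in the aorta. All ductus arrays were more than 1 log2 unit below the lowest aorta array, and Fbln1 was lower by a log2 difference of -1.74 ± 0.150 (3.34-fold; adjusted p = 0.000258). A second probe set was lower by -1.16 ± 0.173, and another, averaging 4.31 on the ductus arrays and 4.57 on the aorta arrays, differed by -0.26 ± 0.169 and did not pass. Efemp1 encodes fibulin 3. It read 8.55, 9.14, 8.15 and 8.28 in the ductus, against 10.47, 9.73, 8.94 and 9.83 in the aorta, with a log2 difference of -1.22 ± 0.316 (adjusted p = 0.0725). Ductus replicate 2 lay above aorta replicate 3, and without aorta replicate 3 Efemp1 passed (log2 -1.48, adjusted p = 0.0203).

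Fbln2, a fibulin of the elastic lamina, averaged 8.63 ± 0.316 in the ductus and 9.32 ± 0.556 in the aorta (SD, n = 4 each; log2 difference -0.69 ± 0.269, SE; adjusted p = 0.239). It too passed without aorta replicate 3, its lowest aorta array at 8.54 (log2 -0.95, adjusted p = 0.0375). Fbln5, the fibulin that tethers elastin to cells and is needed for elastic fibre assembly in mice, read 12.36, 12.39, 12.41 and 12.44 in the ductus, against 12.08, 12.26, 12.26 and 12.29 in the aorta. The tissues did not overlap, but the difference of 0.18 ± 0.095 did not pass (adjusted p = 0.409), and its 95% interval was -0.04 to 0.39. A second Fbln5 probe set differed by 0.49 ± 0.140 and did not pass. Fbln7 averaged 3.45 ± 0.152 on the ductus arrays and 3.37 ± 0.244 on the aorta arrays, little above the first quartiles of the arrays, with a difference of 0.08 ± 0.143.

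Among the lysyl oxidases, the copper enzymes that cross-link elastin and collagen, 1 of 4 passed. Loxl4 read 7.24, 6.64, 7.62 and 7.004 in the ductus, against 5.33, 5.03, 5.25 and 5.14 in the aorta. The lowest ductus array exceeded the highest aorta array by more than 1 log2 unit, and Loxl4 was 3.84-fold higher in the ductus (log2 difference 1.94 ± 0.193; adjusted p = 0.000573). A dimmer Loxl4 probe set, averaging 3.41 on the ductus arrays and 2.98 on the aorta arrays, differed by 0.43 ± 0.149 and did not pass.

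Lox, the founding enzyme of the family and needed for the arterial wall, read 11.92, 11.96, 11.86 and 11.94 in the ductus, against 11.91, 11.88, 11.89 and 11.98 in the aorta. The groups overlapped, and the 95% interval of the difference was -0.20 to 0.20 (adjusted p = 0.991). Loxl1, which guides cross-linking to elastin, averaged 8.54 ± 0.396 in the ductus and 8.77 ± 0.224 in the aorta (limma, adjusted p = 0.657). Its ductus values were 8.25 to 8.42 apart from ductus replicate 3, at 9.12. Loxl3 averaged 5.95 ± 0.112 in the ductus and 5.50 ± 0.264 in the aorta. Its tissues did not overlap, but the log2 difference of 0.45 ± 0.143 did not pass (adjusted p = 0.142).

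The LTBPs split: Ltbp1 and Ltbp2 were higher and Ltbp4 was lower in the ductus, and Ltbp3 did not pass. Ltbp1, the classical carrier of latent TGF-beta, read 11.84, 11.80, 11.85 and 11.79 in the ductus, against 11.26, 11.30, 11.36 and 11.48 in the aorta. The ductus values lay within 0.1 of each other and above every aorta value, and Ltbp1 was 1.39-fold higher in the ductus (log2 difference 0.47 ± 0.095; adjusted p = 0.0247). Its dimmer probe sets showed larger differences of 1.20 ± 0.213 and 1.23 ± 0.238, and both passed when all probe sets were tested one by one. The call of the brightest probe set was lost on leaving out any single array except aorta replicate 4 (adjusted p up to 0.0768), with differences of 0.44 to 0.48 in the 7 omissions that lost it.

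Ltbp2, which binds fibrillin microfibrils and carries no latent TGF-beta, read 9.97, 9.98, 10.43 and 10.03 in the ductus, against 8.93, 9.58, 9.28 and 9.46 in the aorta. Ductus replicate 3 stood above the other ductus arrays, yet all of them exceeded the aorta (1.73-fold higher in the ductus; log2 difference 0.79 ± 0.166; adjusted p = 0.0299). Without that array the difference was 0.68 and did not pass (adjusted p = 0.0686), and the call was kept without 1 array only, aorta replicate 2.

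Ltbp4, which helps fibulin 5 deposit elastin, read 7.18, 7.08, 7.40 and 6.98 in the ductus, against 7.66, 8.18, 7.57 and 7.94 in the aorta. No ductus array reached the lowest aorta array, and Ltbp4 was lower by a log2 difference of -0.68 ± 0.157 (1.60-fold; adjusted p = 0.0464). The call was lost without any of 6 arrays, all but ductus replicate 3 and aorta replicate 3 (adjusted p up to 0.130), and the adjusted p was 0.0548 when all probe sets were tested one by one and 0.0515 with the most variable probe set for every gene. Ltbp3 read 11.35, 11.17, 11.57 and 11.13 in the ductus, against 11.10, 11.27, 11.16 and 11.13 in the aorta, with a 95% interval of -0.13 to 0.41 for its difference (adjusted p = 0.657).

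**Figure D3:**
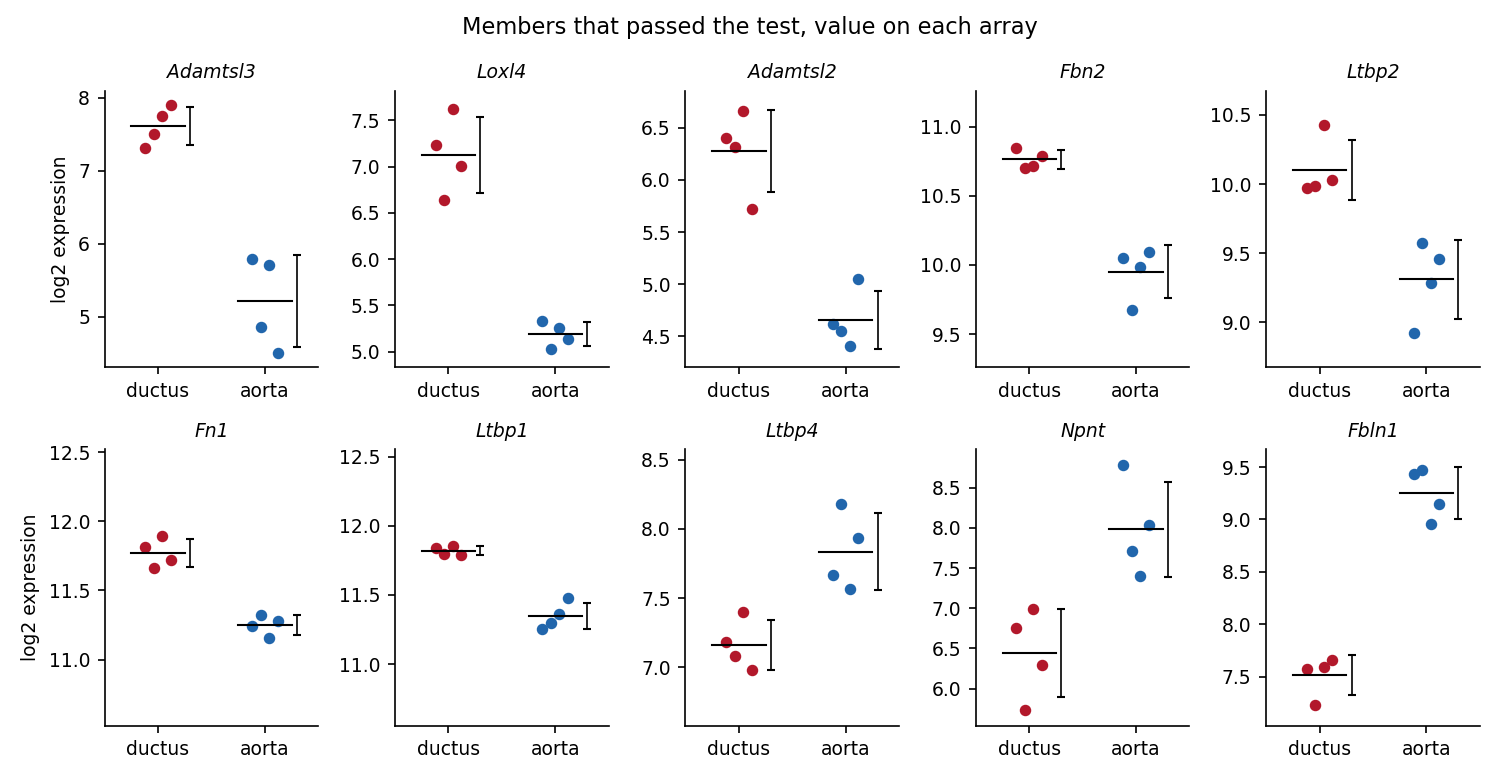
Log2 expression of the 10 called genes on each array, with the ductus left of the aorta; points are arrays, lines means and bars SD (n = 4 each). In every panel the groups do not overlap, and the vertical range differs between panels.

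Outside the core, the ADAMTS-like proteins, secreted relatives of the ADAMTS proteases that lack the protease domain and of which several bind microfibrils, held the largest difference of the 30 genes. Adamtsl3 read 7.32, 7.50, 7.75 and 7.90 in the ductus, against 5.78, 4.86, 5.71 and 4.51 in the aorta. The aorta arrays fell into a higher and a lower pair, all below the ductus (5.28-fold higher in the ductus; log2 difference 2.40 ± 0.285; adjusted p = 0.00159). Adamtsl2, whose loss in humans causes geleophysic dysplasia, read 6.40, 6.32, 6.66 and 5.72 in the ductus, against 4.62, 4.55, 4.41 and 5.05 in the aorta. It was 3.07-fold higher in the ductus without overlap (log2 difference 1.62 ± 0.211; adjusted p = 0.00257).

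Adamtsl5 had values of 6.25, 5.46, 6.16 and 5.32 in the ductus, against 6.36, 7.32, 6.83 and 6.38 in the aorta. The tissues did not overlap, but the gap between the nearest arrays was small and the difference of -0.93 ± 0.277 did not pass (adjusted p = 0.116). Adamtsl1 differed by 0.10 ± 0.170 and Adamtsl4, linked in humans to displaced lenses, by -0.004 ± 0.146, neither passing. Adamtsl2, Adamtsl3 and Adamtsl4 had 1 probe set each, so no second probe set bears on them.

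Of 4 microfibril-associated proteins, 0 were called and 2 had an unadjusted p under 0.05 (limma). Mfap5, a fibrillin-binding microfibril glycoprotein, read 11.90, 11.84, 11.92 and 11.85 in the ductus, against 11.42, 11.61, 11.44 and 11.71 in the aorta. The tissues did not overlap, and the difference of 0.33 ± 0.104 missed the threshold (adjusted p = 0.134) but passed with a trended, robust variance prior (adjusted p = 0.0218). Its other probe set differed by 0.45 ± 0.136. Mfap2, its close relative, averaged 9.37 ± 0.120 in the ductus and 9.45 ± 0.109 in the aorta, with a 95% interval of -0.32 to 0.16 for the difference. Mfap4 differed by 0.14 ± 0.167, and its ductus replicate 3, at 10.58, stood apart from 10.14 to 10.17 on the other ductus arrays. Mfap3, a membrane protein, differed by -0.45 ± 0.196 (adjusted p = 0.296).

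The emilins, glycoproteins at the boundary of elastin and microfibrils, had 0 of 3 called by limma and 0 with an unadjusted p under 0.05. Emilin1 differed by 0.22 ± 0.219, Emilin2 by -0.01 ± 0.298 and Emilin3 by -0.005 ± 0.131. The 95% interval of Emilin2, -0.68 to 0.66, was wide, and Emilin3 was dim in both tissues, with means of 3.86 ± 0.229 on ductus arrays and 3.86 ± 0.097 on aorta arrays.

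**Figure D4:**
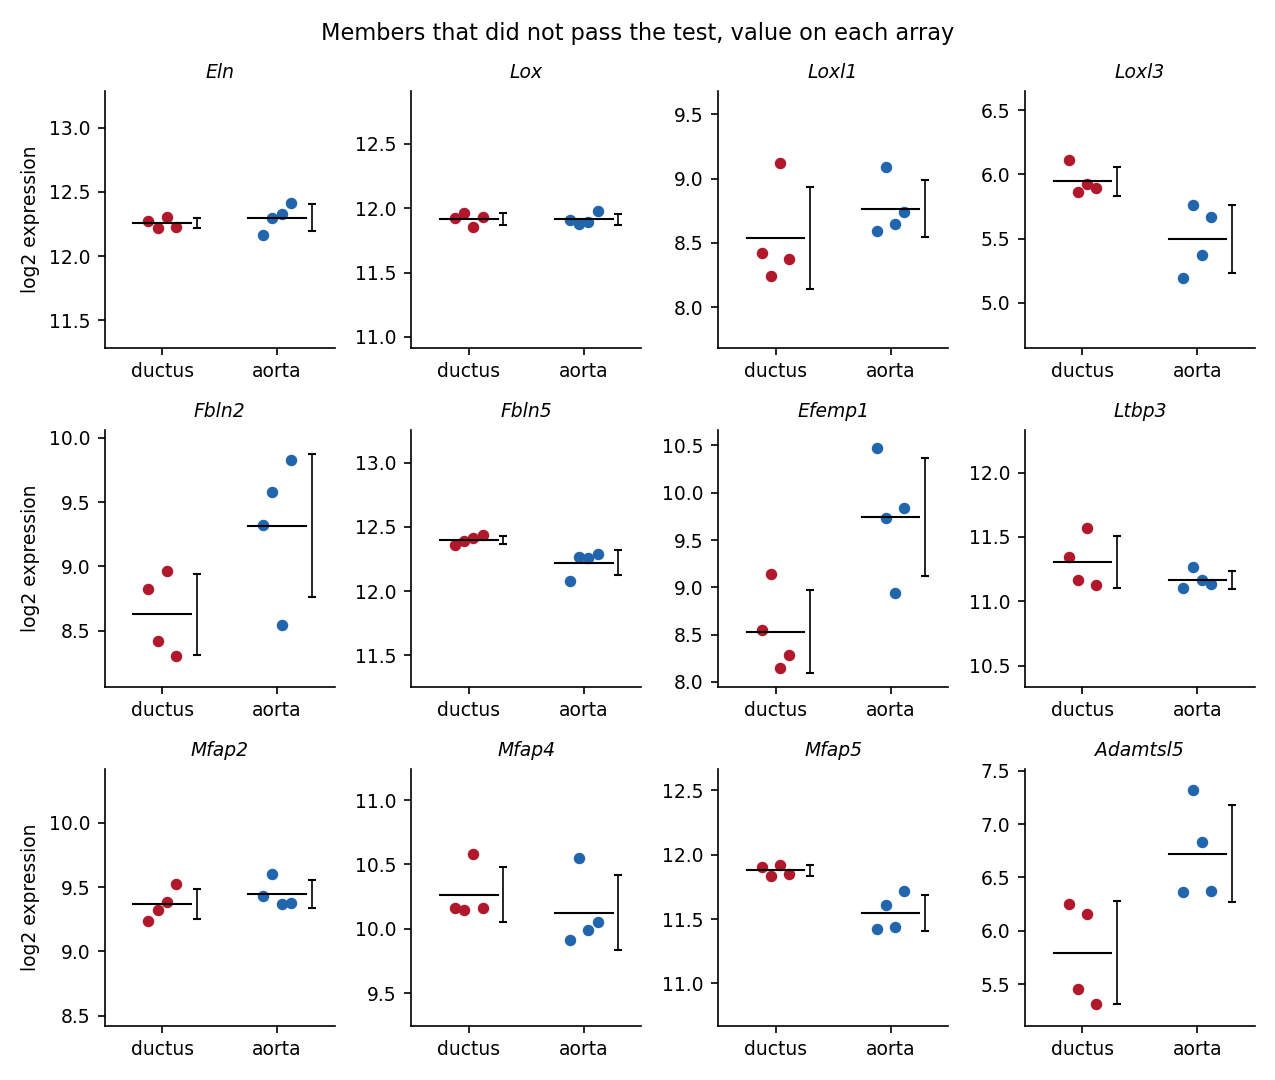
Log2 expression of 12 genes that did not pass, on each array, with the ductus left of the aorta; points are arrays, lines means and bars SD (n = 4 each), and the vertical range differs between panels. Fbln5, Loxl3, Mfap5 and Adamtsl5 did not overlap between the tissues, while Eln, Lox and Mfap2 did.

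The adhesive glycoproteins went in different directions. Fn1 encodes fibronectin, on which fibrillin microfibrils are assembled and which is known to accumulate in the ductus intima of some species. It read 11.81, 11.66, 11.89 and 11.72 in the ductus, against 11.24, 11.33, 11.15 and 11.28 in the aorta. The groups did not overlap, and Fn1 was 1.44-fold higher in the ductus (log2 difference 0.52 ± 0.099; adjusted p = 0.0193). A dimmer probe set differed by 1.28 ± 0.188 and passed too. Without ductus replicate 1 or ductus replicate 3 the call of Fn1 was lost (adjusted p = 0.0610 and 0.0587), with differences of 0.51 and 0.48.

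Npnt, nephronectin, a basement membrane ligand of integrin alpha 8 beta 1, read 6.75, 5.74, 6.99 and 6.29 in the ductus, against 8.78, 7.71, 7.41 and 8.04 in the aorta. No ductus array reached the aorta, and Npnt was lower by a log2 difference of -1.54 ± 0.333 (2.91-fold; adjusted p = 0.0345). All 5 of its probe sets had negative differences, from -1.64 to -1.26, and 4 of them passed when tested one by one. The call was lost without any of 6 arrays, all but ductus replicate 3 and aorta replicate 3 (adjusted p up to 0.1004), with differences of -1.74 to -1.28 over all 8 omissions. In the aorta, Npnt, Efemp1 and the mean of the mesothelial markers ranked the arrays in 1 order, replicates 1, 4, 2 and 3 from high to low, while in the ductus the 3 orders differed. The other genes called lower ranked the aorta arrays otherwise, Fbln1 as 2, 1, 4 and 3 and Ltbp4 as 2, 4, 1 and 3. The order 1, 4, 2 and 3 was not particular to Npnt, Efemp1 and the mesothelial mean. The endothelial markers Tek and Tie1 had it too, and the mean of the endothelial markers ranked the aorta arrays as 1, 2, 4 and 3. Of the 10 mesothelial markers 7 were lower in the ductus and 0 higher, and Msln, a defining marker, differed by -1.92 ± 0.297. On the log2 scale their summed level was 10.10 to 10.83 on ductus arrays and 11.38 to 12.69 on aorta arrays, and 0 of the 10 lay below the highest first quartile on all arrays. Whether mesothelial RNA has a part in the Npnt and Efemp1 values was not tested.

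Vtn, vitronectin, a plasma protein made chiefly by the liver, read 8.30, 7.03, 8.93 and 7.71 in the ductus, against 7.75, 8.52, 7.74 and 8.57 in the aorta. Its ductus values spread over nearly 2 log2 units and enclosed those of the aorta, so the difference of -0.15 ± 0.381 was within the spread (adjusted p = 0.898). The 6 liver markers were bright in both tissues, with Alb at 12.29 and Afp at 10.88 on average in the ductus, against 12.35 and 10.80 in the aorta. The log2 of their summed level was 13.32 to 14.37 on ductus arrays and 13.68 to 14.09 on aorta arrays, and 0 of the 6 were called (limma; 0 with an unadjusted p under 0.05). Their mean ranked the ductus arrays as Vtn did, from replicate 3 (11.62) to replicate 2 (10.44), and replicates 4 and 2 were the highest aorta arrays for both. That ductus order was not particular to Vtn and the liver markers. The smooth muscle mean and other elastic fibre genes, among them Eln, Loxl4, Fn1 and Npnt, had it too. The part of liver RNA in the Vtn values was not tested.

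**Figure D5:**
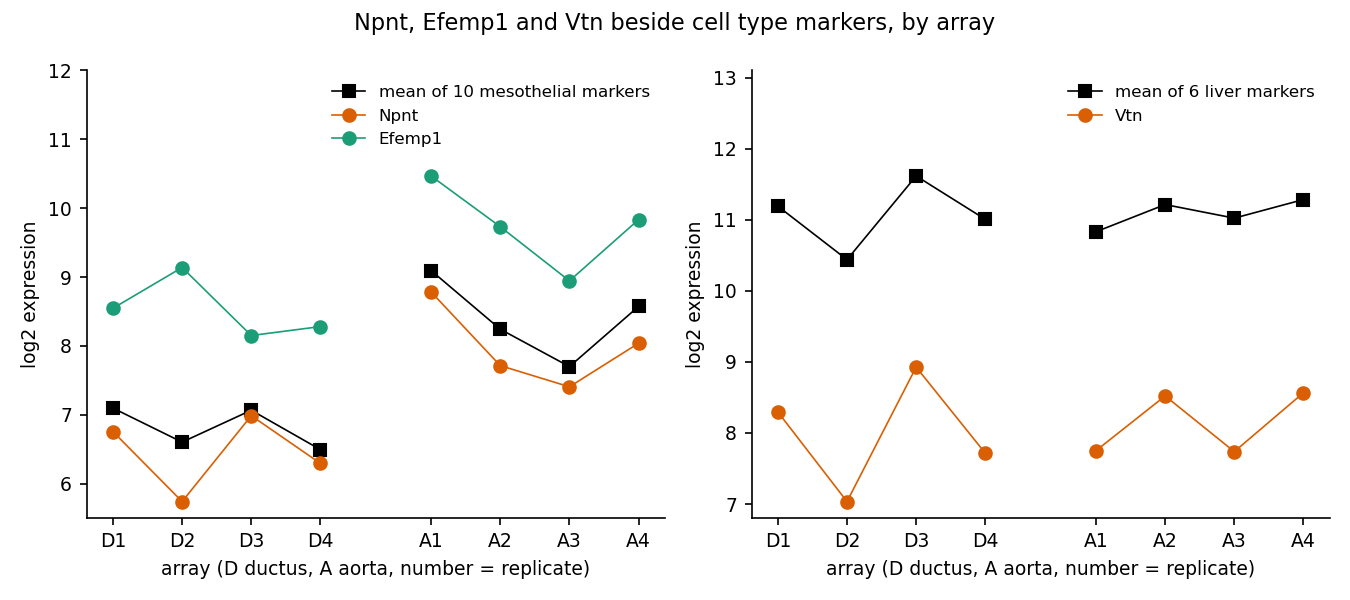
Log2 expression by array (D ductus, A aorta) of Npnt and Efemp1 beside the mean of 10 mesothelial markers, left, and of Vtn beside the mean of 6 liver markers, right. Only the order of arrays within a line can be compared, not heights between lines; on the aorta arrays Npnt, Efemp1 and the mesothelial mean all run from replicate 1, the highest, to replicate 3, the lowest.

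Several probe sets existed for 19 of the 30 genes, and for 16 of these all went one way. For Fbn2, Ltbp1 and Fn1, the brightest probe set, which represents the gene here, gave the smallest difference of the gene's probe sets. For Fbln1 and Loxl4 it gave the largest. Among genes not called, the brightest probe set gave the smallest difference in size for Eln, Lox, Fbln5, Mfap5 and Mfap2. It gave the largest for Fbln2, Loxl1, Mfap3, Emilin1, Adamtsl5 and Vtn. The intervals given for Eln, Lox and Fbln5 are those of the brightest probe set alone. Whether bright probe sets understate differences was not tested.

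Other genes of elastic fibre assembly, turnover and TGF-beta signalling were read from 3 further lists. Among 25 measured assembly partners, 2 were higher and 0 lower in the ductus, with a median log2 difference of 0.03. That was 8% called, against 3.86% of all genes and 5.23% of the genes with a mean above log2 6. Hmcn1, which encodes hemicentin 1, a large fibulin-related matrix protein, averaged 9.63 ± 0.214 on ductus arrays and 8.13 ± 0.370 on aorta arrays, a 2.83-fold difference (adjusted p = 0.00219). Svep1, a large matrix protein with many domains, was 1.74-fold higher there (adjusted p = 0.0467, and up to 0.130 with an array left out; the call was kept only without ductus replicate 1 or aorta replicate 1). Svep1 was also lost with quantile normalization (adjusted p = 0.0533) and with a trended, robust prior (0.0536). Bmp1, which processes prolysyl oxidase and procollagen, differed by 0.07 ± 0.162, and Atp7a, the copper pump that supplies lysyl oxidases, by 0.34 ± 0.141 (adjusted p = 0.264), neither passing.

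Among 13 measured elastases and inhibitors, 1 was higher and 1 lower, with a median of -0.06. That was 15.4% called, against 3.86% of all genes, and rests on these 2 genes. Mmp14, a membrane metalloprotease, was 1.69-fold higher in the ductus (7.17 ± 0.123, against 6.41 ± 0.222 in the aorta; adjusted p = 0.0122), and its call held on leaving out each array. All 3 of its probe sets had positive differences, and 1 of them passed when tested one by one. Timp4, a metalloprotease inhibitor of the cardiovascular system, averaged 7.83 ± 0.194 in the ductus and 9.46 ± 0.476 in the aorta (log2 difference -1.63 ± 0.222; adjusted p = 0.00321), and both of its probe sets were lower in the ductus.

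Among 22 TGF-beta and integrin partners, 0 were higher and 1 was lower, with a median of -0.04. That was 4.5% called, close to the 3.86% of all genes, so the count says little about the list. Tgfbr2, the type II TGF-beta receptor, averaged 9.21 ± 0.116 in the ductus and 9.79 ± 0.143 in the aorta (log2 difference -0.57 ± 0.113; adjusted p = 0.0223). Of its 3 probe sets 1 passed when tested one by one, and the others differed by -0.66 ± 0.160 and -0.02 ± 0.150. The call was lost without ductus replicate 2 or 4 or aorta replicate 1 or 2 (adjusted p up to 0.0733). It was also lost with the most variable probe set (adjusted p = 0.0589). None of the 3 TGF-beta ligands passed (limma; 0 with an unadjusted p under 0.05): Tgfb1 differed by 0.46 ± 0.304, Tgfb2 by -0.08 ± 0.093 and Tgfb3 by -0.07 ± 0.141.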

How the data were processed

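Total RNA of 4 ductus and 4 aorta litter pools was labelled as biotin cRNA and hybridised to Affymetrix arrays, per the labels' protocols. The deposited values were log2 expression per probe set, made with RMA and Partek 6.6 per the submitters' processing notes, which do not give their order or settings. No further normalization was applied.

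Among a gene's probe sets annotated to 1 symbol only, the brightest over the 8 arrays stood for the gene. Ductus minus aorta was fitted with limma 3.58.1 (R 4.3.3; lmFit and eBayes, two-sided) over 18193 genes, with Benjamini-Hochberg adjustment and a call at an adjusted p under 0.05. The script was tested on simulated data. The alternatives were other rules for the probe set, median centring, quantile normalization, a filter on dim genes, a trended robust prior, array weights, stricter calls, the replicate number as a block and each array left out.

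The members, the gene lists and the rule for named genes (all members, and the called genes of the other lists) were chosen with earlier results of these data known. Bmp1, Atp7a and the TGF-beta ligands were named after their values were seen. Litter pools set the spread behind the p-values, and 4 arrays per tissue limit the precision. Errors are SD for means and SE for differences.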

Additional observations from a re-analysis of the deposited data

Results flagged for a closer look

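Among the 60 groups of 4 arrays (30 genes in 2 tissues), 3 held an array whose gap to its neighbour exceeded Dixon's 95% critical value as a share of the group's range. Chance gives about 1 in 20 groups. Mfap4 read 10.58 on ductus replicate 3, against 10.17 on the nearest ductus array, a share of 0.950. Ltbp2 read 10.43 on ductus replicate 3, against 10.03 on the nearest, a share of 0.866. Fbln5 read 12.08 on aorta replicate 1, against 12.26 on the nearest aorta array, a share of 0.854. Among the ductus arrays, replicate 3 also had the highest means of the skeletal muscle (6.10), lung epithelium (5.40), liver (11.62) and smooth muscle (10.50) markers. It was highest for the endothelial (7.61) and fibroblast (9.70) markers as well, and other ductus arrays were highest for the remaining marker lists. The part of these cell types and tissues in the values was not tested.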

How the results depend on the processing

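Of the 10 called genes, 5 (Fbn2, Fbln1, Loxl4, Adamtsl2 and Adamtsl3) were called under all 16 alternatives run for each gene, and none of the 10 changed direction. The stricter calls given below are not among the 16, and Fbn2, at 1.75-fold, did not reach the 2-fold minimum. With the replicate number as a block, 403 genes were called instead of 702, with 4 elastic fibre genes higher and 1 lower in the ductus (core 2 and 1), and Ltbp1 (adjusted p = 0.132), Ltbp2 (0.0801), Ltbp4 (0.168), Fn1 (0.120), Npnt (0.0538), Mmp14 (0.0801), Svep1 (0.158) and Tgfbr2 (0.113) were lost. Same-numbered arrays correlated at -0.227 to -0.0676 in their deviations, and 0 of 4 ductus arrays correlated best with their own number. Ductus replicates 1 and 2 correlated best with aorta replicates 4 (0.3422) and 1 (0.1878). Ductus replicates 3 and 4 did so with aorta replicates 2 (0.2949) and 3 (0.2795). Whether any ductus pool and aorta pool came from 1 litter was not tested, as the labels do not give the litters. At an adjusted p under 0.01, 304 genes were called, with 4 members higher and 1 lower (core 2 and 1). With a 2-fold minimum, 388 genes were called, with 3 members higher (core 1 higher and 1 lower). With the most variable probe set of each gene, 1 core gene was lower, since Ltbp4 was lost (adjusted p = 0.0515). Leaving out 1 array gave 443 (without aorta replicate 2) to 705 called genes, 4 to 6 members higher, 1 to 5 lower, 2 to 3 core genes higher and 1 to 4 lower. Quantile normalization and median centring left 10 members called. Signs changed only among 8 genes that were not called. Lox was at -0.0367 with quantile normalization, Mfap2 at 0.20 with the most variable probe set and 0.0600 with the mean of probe sets, Emilin2 at 0.0225 with array weights, and Adamtsl1 at -0.0267 with the mean of probe sets. With an array left out, log2 differences ran from -0.00205 to 0.189 for Fbln7, -0.0106 to 0.0248 for Lox, -0.260 to 0.185 for Emilin2, -0.0897 to 0.0825 for Emilin3, -0.0465 to 0.188 for Adamtsl1, -0.119 to 0.0774 for Adamtsl4 and -0.462 to 0.169 for Vtn. The cause of these changes was not tested. Dim probe sets carry no detection call, which limits Fbln7 and Emilin3.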
